A study of Mus musculus and Rattus norvegicus with 30 samples.

Results

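The genes described here encode the subunits of the heterotrimeric G proteins and the regulator of G protein signalling (RGS) proteins. They were chosen by a rule on symbols, set with earlier results of these data known. The rule took Rgs with a number, the Gna genes of the alpha subunits, Gnb1 to Gnb5 and Gng with a number. This gave 55 of 54315 features in the mouse count table and 53 of 39281 in the rat table. The symbol rule also takes in Gnb1l, whose protein is not a G protein subunit, and Rgs7bp and Rgs9bp, whose proteins bind and anchor RGS proteins.

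The study sequenced RNA of dorsal root ganglia (DRG), where the cell bodies of sensory neurons lie, to find transcripts dysregulated by nerve injury. In mouse, L3 and L4 DRG were taken from single male and female animals of the BALB/c and B10.D2 strains, weeks after sham surgery or spared nerve injury (SNI), an operation that severs the common peroneal and sural nerves and leaves the tibial nerve intact. In rat, L5 DRG came from male Wistar animals after sham surgery or spinal nerve transection (SNT), and each library held RNA pooled from 3 animals. No transgene or targeted allele is named for any group. BALB/c contributed 6 sham and 4 SNI libraries, B10.D2 5 of each and rat 4 of each, and 2 further labelled mouse samples were not analysed here. P-values below measure the spread between mouse animals or between rat pools.

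A G protein couples a receptor at the cell surface to enzymes and channels inside the cell. When the receptor is activated, the alpha subunit exchanges GDP for GTP and separates from the beta-gamma pair, and both act until the alpha subunit hydrolyses its GTP. Alpha subunits of the Gi/o family lower cyclic AMP, those of the Gs family raise it, and those of the Gq/11 family activate phospholipase C beta, while the G12/13 family forms a further class. RGS proteins speed up GTP hydrolysis and so shorten the signal, and in sensory neurons Gi/o proteins carry the action of opioid and other inhibitory receptors. The R7 subfamily of RGS proteins (Rgs6, Rgs7, Rgs9 and Rgs11) works as a complex with the beta subunit Gnb5 and is held at the membrane by Rgs7bp.

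After SNI, 5 members were called in both mouse strains. These were Rgs16, which rose, and Rgs6, Rgs7bp, Gnai1 and Gng8, which fell. A gene is termed called where its adjusted p-value (edgeR quasi-likelihood F test, Benjamini-Hochberg over all features tested) was under 0.05. The 250 bases upstream of the RefSeq start of 4 of them are shown because these genes moved in the same direction in both strains (RefSeq, build GRCm38.p6, each written 5′ to 3′ on the strand of its gene). Capitals mark matches to the GC box GGGCGG, its reverse complement CCGCCC, or the cyclic AMP response core TGACG. The window of Rgs6 (chr12:82617249-82617498, plus strand) overlapped an annotated exon over 135 bases and is not printed, and the last 4 bases of the Rgs16 window are annotated as exon in GENCODE.
Rgs16, chr1:153740103-153740352, plus strand: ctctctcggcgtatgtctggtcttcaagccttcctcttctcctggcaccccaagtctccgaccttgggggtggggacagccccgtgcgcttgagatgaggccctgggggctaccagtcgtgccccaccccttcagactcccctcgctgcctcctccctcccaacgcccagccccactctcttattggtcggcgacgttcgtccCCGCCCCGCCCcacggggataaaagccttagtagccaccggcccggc
Gnai1, chr5:18360414-18360663, minus strand: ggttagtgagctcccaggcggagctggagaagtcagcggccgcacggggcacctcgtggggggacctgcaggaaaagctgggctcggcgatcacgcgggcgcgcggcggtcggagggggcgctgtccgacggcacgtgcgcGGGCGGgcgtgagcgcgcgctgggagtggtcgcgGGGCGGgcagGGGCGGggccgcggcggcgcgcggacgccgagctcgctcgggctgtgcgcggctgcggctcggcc
Gng8, chr7:16891536-16891785, plus strand: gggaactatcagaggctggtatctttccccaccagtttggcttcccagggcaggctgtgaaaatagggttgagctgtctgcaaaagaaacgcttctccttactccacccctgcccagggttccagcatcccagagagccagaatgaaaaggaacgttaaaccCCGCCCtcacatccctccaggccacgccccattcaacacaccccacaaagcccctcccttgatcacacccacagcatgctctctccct
Rgs7bp, chr13:105054931-105055180, minus strand: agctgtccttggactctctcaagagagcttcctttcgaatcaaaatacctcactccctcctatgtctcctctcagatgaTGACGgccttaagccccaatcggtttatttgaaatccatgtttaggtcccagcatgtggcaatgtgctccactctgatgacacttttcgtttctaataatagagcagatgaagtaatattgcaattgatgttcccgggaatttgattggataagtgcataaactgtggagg

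The 4 windows differed in base composition. GC content was 66.4% for Rgs16, 79.2% for Gnai1, 56% for Gng8 and 43.2% for Rgs7bp, beside a mean of 53.2% over 32851 promoter windows of the same length. The GC box was searched on both strands and was found in the windows of Gnai1 (3 matches), Rgs16 (2) and Gng8 (1), and 32.7% of all windows held it. TGACG or its reverse complement CGTCA was found in the window of Rgs7bp, 171 bases before the start, and 17.8% of all windows held it. Its letters are contained in the full cyclic AMP response element TGACGTCA, which was in none of these windows, in 0 of 54 windows of the member genes and in 1.55% of all windows. The AP-1 motif TGACTCA and the TATA motif TATAAA, searched the same way, were likewise absent from the 4 windows, and 4.46% and 12.4% of all windows held them. These matches describe letters and not bound sites.

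Each mouse library held between 29.99 and 41.88 M counts, where M stands for mega, and each rat library between 11.95 and 17.89 M. Levels are given as counts per M (CPM) after TMM scaling. The injury label was checked in mouse with the injured neuron markers Atf3, Sprr1a, Gal, Npy, Sox11 and Gap43, of which 6 of 6 rose in each strain. In rat, 2 libraries stood apart: on the first principal component, which held 71.5% of the variance, sham 4 lay at -6.33 and SNT 1 at 1.09, whereas the other sham libraries lay between -48.7 and -35.7 and the other SNT libraries between 30.6 and 49.9. The summed injured neuron markers were 343 CPM in sham 4, against 96.0 to 110 CPM in the other sham libraries. The log2 fold changes of rat genes are therefore given with these libraries and, where stated, without both of them. Both lay between the groups, so leaving them out tends to widen the difference and narrow the spread by the choice itself. The values without them are given as description and not as further support for a call. The rat table lists many features at 0 in every library, among them Tubb3 and Uchl1, which neurons of DRG express. The listed 0 of a rat gene is therefore not read as absence. Skeletal muscle markers summed to between 7.43 and 1146 CPM in the BALB/c sham libraries.

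Rgs4 was the most abundant member in sham mouse DRG. Levels between genes were compared per kb of annotated exon over the 11 sham libraries of both strains, and Rgs4, an R4 family RGS protein that acts on Gi/o and Gq/11 alpha subunits, stood at 381 ± 22.9 CPM per kb (SD, n = 11). Its lowest library (352) was above the highest library of the next member, the beta subunit Gnb1 (93.8 ± 11.96, range 78.8 to 115). From Gnb1 to the Gq/11 alpha subunit Gna11 (17.0 ± 0.79, rank 21) each member overlapped its neighbour in the order. Of 35078 annotated features with a count and a length, 99.9% had a lower mean than Rgs4 and 92.3% a lower mean than Gna11.

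Among alpha subunits the order was led by Gnas, which raises cyclic AMP, with 61.1 ± 4.21 CPM per kb, followed by Gnaq of the Gq/11 family (47.3 ± 3.58). The Gi/o members Gnai2 (41.4 ± 2.28), Gnai1 (37.1 ± 2.43) and Gnai3 (30.1 ± 1.68) came next. The libraries of Gnas (lowest 54.9) and Gnaq (highest 52.8) did not overlap, whereas each neighbour from Gnaq to Gnai3 overlapped the next. Gna13 led the G12/13 class at 26.2 ± 4.41. Gna15 was the scarcest alpha subunit that was tested (0.38 ± 0.15), and the transducins Gnat1, Gnat2 and Gnat3, the alpha subunits of photoreceptors and taste cells, were at or below 0.076 CPM per kb in every sham library. The order depends on the exon length used, as the Gi/o member Gnao1 shows. Gnao1 has 11.053 kb of annotated exon and stood at 21.75 CPM per kb, whereas Gnai2 has 3.779 kb. In CPM, Gnao1 was above Gnai2, at 180.6 to 285.0 against 146.6 to 161.7 in BALB/c sham. In B10.D2 sham the CPM ranges were 222.2 to 281.9 for Gnao1 and 138.2 to 167.6 for Gnai2.

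Among gamma subunits Gng2 (54.3 ± 4.11 CPM per kb) and Gng3 (53.4 ± 7.05) overlapped, and together they made up most of the gamma level: in BALB/c sham, Gng2 was 37.9% ± 1.52 and Gng3 40.5% ± 2.87 of the summed gamma subunits per kb (SD, n = 6). Gnb1 was 55.5% ± 2.74, Gnb2 24.9% ± 1.80 and Gnb5 12.97% ± 0.92 of the summed beta subunits in the same libraries. Rgs4 was 68.6% ± 0.87 of the summed RGS genes, and this share was 68.4% ± 0.97 in BALB/c SNI, 68.4% ± 0.58 in B10.D2 sham and 67.8% ± 0.78 in B10.D2 SNI. The ranges of this share overlapped between all 4 groups. All these shares are per kb of exon and depend on exon length. In CPM, the BALB/c sham libraries ran from 72.93 to 106.1 for Gng3 and from 208.1 to 254.1 for Gng2.

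The leading members of the other RGS classes were Rgs10 of the R12 family (71.6 ± 3.64 CPM per kb), the anchor Rgs7bp (61.9 ± 7.62), Rgs7 of the R7 family (10.2 ± 0.67) and Rgs17 of the RZ family (8.49 ± 0.86). Rgs22, which belongs to none of these families, stood at 0.12 ± 0.035, and Gnb1l at 1.02 ± 0.087. The members that moved after injury were not the abundant ones in every case: Rgs16 was at rank 41 of 55 with 1.06 ± 0.19, Rgs6 at rank 34 with 2.86 ± 0.39 and Gng8 at rank 35 with 2.56 ± 0.36. Rgs21 was listed at 0 in all 11 sham libraries.

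**Figure D1:**
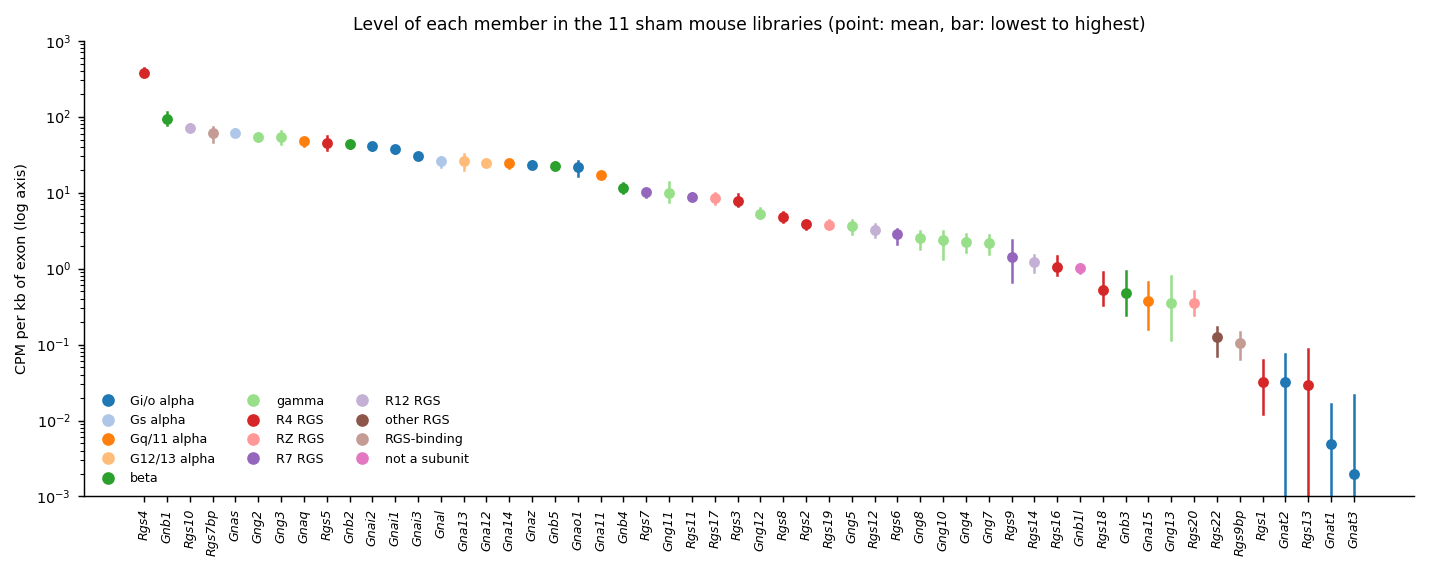
Level of each member with a count in the 11 sham mouse libraries, in CPM per kb of annotated exon on a log axis, with points for the mean, bars from the lowest to the highest library (bars that reach 0 stop at the axis) and colours for the class. Rgs4 (381) stands above all other members, and Rgs16 (1.06), Rgs6 (2.86) and Gng8 (2.56) lie in the lower part of the order.

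The mouse injury question was whether SNI changed the level of these genes in either strain. Of 55 members, 50 passed the filter on low counts in mouse (Gnat1, Gnat2, Gnat3, Rgs13 and Rgs21 did not). In BALB/c, 10 of 50 were called, beside 9.69% of 24685 features tested. Of these, 5 were higher (4.82% of all features were) and 5 lower (4.87%). In B10.D2, 5 of 50 were called, beside 4.58% of all features, with 1 higher (2.1% of all features) and 4 lower (2.48%). The median log2 fold change of the tested members was -0.03 for BALB/c and 0.03 for B10.D2 (0.00 and 0.01 over all features), and the median absolute log2 fold change was 0.13 and 0.09 (0.13 and 0.11 over all features). All 5 members called in B10.D2 were also called in BALB/c in the same direction, that is 5 of 5 B10.D2 calls and 5 of 10 BALB/c calls.

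Rgs16, an R4 family RGS protein that acts on Gi/o and Gq/11 alpha subunits, rose in both strains. In BALB/c sham its lowest, median and highest libraries were 2.08, 2.34 and 3.46 CPM, and the SNI libraries were 4.70, 5.59, 4.85 and 5.87 CPM. In B10.D2 the sham libraries were 1.90, 2.62, 2.53, 2.18 and 2.80 CPM and the SNI libraries 6.92, 3.70, 4.32, 3.77 and 4.87 CPM. Every SNI library was above every sham library of its strain. The log2 fold change was 1.05 ± 0.17 (SE) in BALB/c (adjusted p = 2.87e-04, edgeR) and 0.99 ± 0.17 in B10.D2 (adjusted p = 0.00138), and the call held under all 26 alternatives in each strain. Rgs16 lies on chromosome 1 (153740349 to 153745468, plus strand, GENCODE M21 on mm10). Whether a change in a bulk sample reflects a change in the number of cells of a type or in RNA per cell cannot be told apart for this or any other member.

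Rgs6 fell in both strains. This R7 family member acts on Gi/o alpha subunits together with Gnb5. In BALB/c the lowest, median and highest sham libraries were 25.1, 28.9 and 33.0 CPM, and the SNI libraries were 20.5, 17.0, 14.9 and 16.4 CPM. In B10.D2 the sham libraries were 33.7, 33.5, 26.0, 26.4 and 21.3 CPM and the SNI libraries 15.6, 14.9, 17.3, 17.4 and 18.9 CPM. Again the groups did not overlap within either strain. On the log2 scale the change was -0.76 ± 0.11 in BALB/c (adjusted p = 9.34e-05, edgeR) and -0.72 ± 0.11 in B10.D2 (adjusted p = 2.89e-04), and this call also held under all 26 alternatives. The gene spans chromosome 12 from 82588292 to 83162056 on the plus strand.

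Rgs7bp, the membrane anchor of the R7 complex, was abundant and fell by less. In BALB/c sham the lowest, median and highest libraries were 326, 411 and 444 CPM, and the SNI libraries were 278, 276, 314 and 302 CPM. In B10.D2 the sham libraries were 456, 507, 479, 515 and 444 CPM and the SNI libraries 340, 422, 388, 426 and 374 CPM. All SNI libraries were below all sham libraries of the same strain, and the B10.D2 SNI libraries lay within the range of the BALB/c sham libraries. Its log2 fold change was -0.46 ± 0.08 in BALB/c (adjusted p = 4.42e-04, edgeR) and -0.29 ± 0.08 in B10.D2 (adjusted p = 0.0266). In B10.D2 the call was lost when any of SNI 69, 78 and 90 or sham 60, 67 and 77 was left out (adjusted p up to 0.0966).

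Of the other parts of the R7 complex, Rgs7 was called in BALB/c alone. Its sham libraries ran from 52.3 to 61.3 CPM with a median of 59.6, and its SNI libraries were 53.2, 49.2, 51.3 and 52.0 CPM, so that the groups overlapped. As a log2 fold change this was -0.19 ± 0.05 (adjusted p = 0.0322, edgeR), and the call was lost on leaving out each of the 4 SNI libraries and sham 51, 56, 57 and 71 (adjusted p up to 0.0875). In B10.D2 the value was -0.11 ± 0.05 (adjusted p = 0.281). The obligate partner Gnb5 had log2 fold changes of -0.00 ± 0.05 and -0.05 ± 0.05, and Rgs11 and Rgs9 were not called in either strain.

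Gnai1, an inhibitory alpha subunit, fell in both strains. Gnai1 sham libraries in BALB/c had a lowest, median and highest value of 104, 113 and 129 CPM, and the SNI libraries were 103, 87.4, 91.2 and 99.7 CPM. In B10.D2 they were 126, 118, 113, 119 and 110 CPM in sham and 92.7, 98.1, 89.6, 95.2 and 87.5 CPM in SNI. The groups did not overlap, by a small margin in BALB/c. The log2 fold change was -0.28 ± 0.05 (adjusted p = 0.00157, edgeR) and -0.32 ± 0.05 (adjusted p = 6.10e-04), and it passed under all 26 alternatives in each strain. Gnai1 lies on chromosome 5 (18265135 to 18360355, minus strand).

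Gnai2 and Gnai3 rose in BALB/c. Gnai2 was 147 to 162 CPM in sham (median 157) and 165, 179, 176 and 187 CPM in SNI, with no overlap, and Gnai3 was 90.7 to 101 CPM in sham (median 97.7) and 98.7, 109, 115 and 112 CPM in SNI, with overlap. The log2 fold changes were 0.18 ± 0.05 (adjusted p = 0.0343, edgeR) and 0.17 ± 0.05 (adjusted p = 0.0334), and each call was lost under 7 of 26 alternatives, with adjusted p up to 0.121 and 0.160. For Gnai2 these included leaving out SNI 64, 65 or 70 or sham 50, 51 or 71, and for Gnai3 leaving out SNI 64, 65 or 70 or sham 50 or 56. In B10.D2 the values were 0.11 ± 0.05 (adjusted p = 0.308) and 0.04 ± 0.05 (adjusted p = 0.765). Within the summed alpha subunits per kb, the BALB/c share of Gnai2 was 10.9% ± 0.51 in sham and 12.7% ± 0.25 in SNI, and that of Gnai1 was 9.71% ± 0.88 and 8.28% ± 0.74. Gnao1 and Gnaz, the remaining tested Gi/o members, were not called in either strain, with log2 fold changes between -0.15 and -0.02.

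Gng8, a gamma subunit known from olfactory and vomeronasal neurons, was scarce and fell in both strains. In BALB/c its sham libraries were 2.73 to 3.83 CPM (median 3.64) and its SNI libraries 2.95, 2.73, 2.26 and 2.75 CPM. In B10.D2 the sham libraries were 4.18, 4.73, 4.35, 4.07 and 4.47 CPM and the SNI libraries 2.62, 2.86, 2.30, 3.67 and 3.92 CPM. The groups overlapped in BALB/c through sham 55, and not in B10.D2. On the log2 scale the change was -0.39 ± 0.11 (adjusted p = 0.0312, edgeR) in BALB/c and -0.47 ± 0.11 (adjusted p = 0.0128) in B10.D2. The BALB/c call was lost under 9 of 26 alternatives (without the sex term, without the filter, with each strain alone, and without SNI 49, 65 or 70 or sham 51, 56 or 57, adjusted p up to 0.0951), whereas the B10.D2 call held under all 26. None of the other 9 gamma subunits and none of the 5 beta genes was called after SNI.

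**Figure D2:**
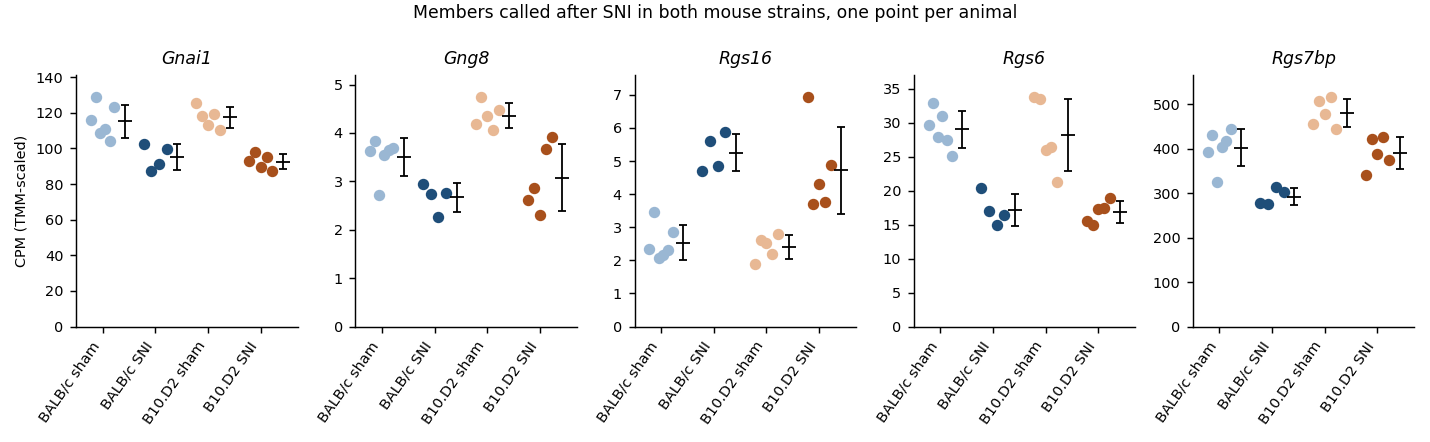
CPM of the 5 members called after SNI in both strains, with 1 point per animal and the mean ± SD beside each group. Rgs16 is higher in SNI in both strains and the other 4 are lower, and BALB/c Gng8 is the 1 panel pair in which sham and SNI points overlap.

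Rgs20 and Gna15 were called in BALB/c alone and were both scarce. Rgs20, an RZ family RGS protein that acts on Gz, was 1.05 to 1.71 CPM in sham (median 1.197) and 2.34, 2.71, 1.996 and 2.10 CPM in SNI, with no overlap. Its log2 fold change was 0.83 ± 0.17 (adjusted p = 0.00345, edgeR), and it held under all 26 alternatives. In B10.D2 Rgs20 was 2.16, 1.27, 1.60, 2.02 and 1.52 CPM in sham and 2.12, 1.61, 2.13, 1.45 and 2.27 CPM in SNI, and the log2 fold change was 0.15 ± 0.17 (95% CI -0.20 to 0.51). The difference between the strains' injury changes was -0.68 ± 0.24 on the log2 scale (95% CI -1.19 to -0.17, edgeR adjusted p = 1.0), so it did not pass the correction over all features.

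Gna15, a promiscuous Gq/11 family alpha subunit known from blood cells, was 0.34 to 1.16 CPM in BALB/c sham (median 0.71) and 1.297, 1.304, 1.61 and 1.02 CPM in SNI. These groups overlapped. Its log2 fold change was 0.94 ± 0.25 (adjusted p = 0.0215, edgeR), and the call was lost with each strain fitted alone and without SNI 49, SNI 65 or sham 56 (adjusted p up to 0.0675). In B10.D2 the value was 0.56 ± 0.24 (adjusted p = 0.234). The other Gq/11 members and the Gs and G12/13 classes were not called in either strain, with log2 fold changes between -0.12 and 0.07.

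Values that missed the threshold were not all small. Rgs1, an R4 family RGS protein of lymphocytes, had the highest log2 fold change in B10.D2 (1.25 ± 0.38, edgeR adjusted p = 0.0709) at 0.11 to 0.44 CPM in sham and 0.35 to 0.98 CPM in SNI. Rgs12 of the R12 family had 0.25 ± 0.09 in BALB/c (adjusted p = 0.0739) and 0.28 ± 0.09 in B10.D2 (adjusted p = 0.0800). Both were picked out after their values were seen. Rgs4, the most abundant member, had log2 fold changes of -0.05 (95% CI -0.17 to 0.07) and -0.00 (95% CI -0.12 to 0.12).

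**Figure D3:**
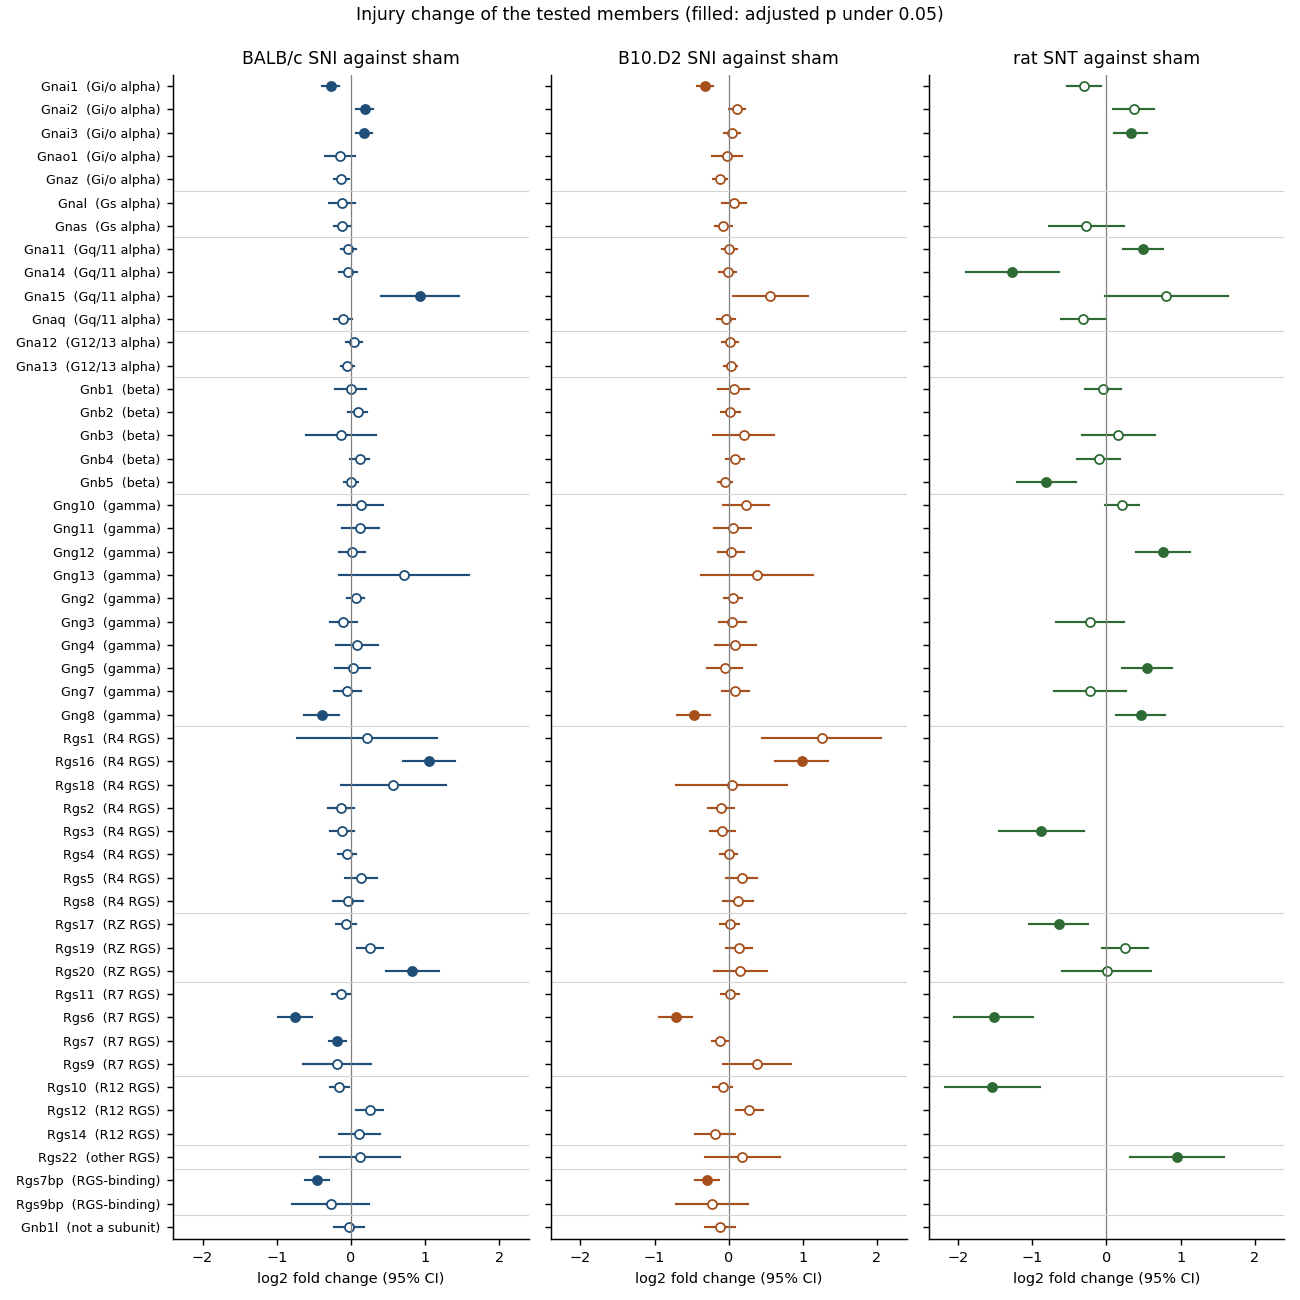
Log2 fold change (x axis, with the 95% CI as a line) of every tested member after SNI in BALB/c and B10.D2 and after SNT in rat, ordered by class, with filled points for adjusted p under 0.05. Filled points number 10, 5 and 12, and Rgs6 is filled and below 0 in all 3 panels.

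Markers of cell types moved beside these changes. The 6 macrophage markers summed to 39.2 to 101 CPM in BALB/c sham and 80.0 to 128 in SNI, with 3 of 6 called higher, and to 77.6 to 89.9 and 91.9 to 150 in B10.D2, with 0 of 6 called. The 6 neuron markers summed to 5592 to 6315 CPM in BALB/c sham and 5582 to 6175 in SNI, and to 6097 to 6635 and 5604 to 6607 in B10.D2. Of these Snap25 alone was called, lower in both strains, at -0.51 ± 0.07 and -0.43 ± 0.06 (edgeR, adjusted p = 2.92e-05 and 3.15e-04). T cell markers summed to at most 1.48 CPM in any mouse library. The part of these markers in the members' changes was not tested.

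The strain by injury interaction asked whether SNI changed a member differently in B10.D2 and BALB/c. It called 0 of 50 members with edgeR and 0 with DESeq2, beside 0.0243% of all features. An unadjusted p under 0.05 was found for 1 of 50 members (Rgs20), beside 4.35% of all features. For the 5 members called in both strains the interaction was between -0.08 and 0.17 on the log2 scale. The intervals do not show equal changes: that of Rgs16 ran from -0.57 to 0.44 and that of Rgs7bp from -0.06 to 0.39. No member was called between female and male mice with edgeR or DESeq2 (0 of 50, beside 0.243% of all features). Of the 50 members, 7 (14.0%) had an unadjusted p under 0.05, near the share of all features (11.7%). Gng8 had the smallest, with a log2 difference of -0.25 ± 0.08, female minus male (edgeR adjusted p = 0.193).

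The baseline comparison of the strains used the sham libraries, which also serve as controls of both injury comparisons. In B10.D2 against BALB/c, 9 of 50 members were called, 6 higher and 3 lower, beside 21.6% of all features. The median log2 difference was 0.06 (-0.01 over all features).

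Gna13, an alpha subunit of the G12/13 family, had the smallest adjusted p of any member. Its BALB/c sham libraries were 183 to 204 CPM (median 189) and its B10.D2 sham libraries 132, 128, 145, 151 and 143 CPM. The strains did not overlap, and the same held in the SNI libraries, at 179, 189, 191 and 181 CPM in BALB/c and 139, 152, 146, 144 and 136 CPM in B10.D2. The log2 difference in sham was -0.45 ± 0.04 (adjusted p = 2.85e-08, edgeR). Its share of the summed alpha subunits per kb was 7.86% ± 0.22 for BALB/c and 5.69% ± 0.45 for B10.D2.

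The gamma subunits differed in both directions. Gng10 was 3.28 to 4.11 CPM in BALB/c sham (median 3.87) and 2.57, 2.05, 2.55, 1.76 and 3.11 CPM in B10.D2 sham, with a log2 difference of -0.66 ± 0.14 (adjusted p = 0.00149, edgeR). Gng7, which pairs with Golf in the striatum, was 8.40 to 10.6 CPM (median 9.001) and 5.85, 7.09, 8.02, 6.87 and 7.41 CPM, with -0.40 ± 0.08 (adjusted p = 0.00135). Neither overlapped between the strains.

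Gng4 went the other way, at 5.54 to 8.48 CPM in BALB/c sham (median 5.95) and 8.13, 9.02, 8.31, 9.55 and 8.81 CPM in B10.D2, and BALB/c sham 57 reached into the B10.D2 range. The log2 difference was 0.45 ± 0.13 (adjusted p = 0.0127, edgeR). Gng8 was also higher in B10.D2 (0.29 ± 0.10, adjusted p = 0.0456), a call lost under 15 of 25 alternatives with adjusted p up to 0.142, among them leaving out B10.D2 sham 60, 67, 77 or 88, B10.D2 SNI 76, BALB/c sham 50, 51, 55 or 71 or BALB/c SNI 64, 65 or 70. Its libraries did not overlap between the strains in sham.

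Gnb3, the beta subunit of cone photoreceptors, was scarce in BALB/c sham (0.65 to 1.49 CPM, median 0.87) and at 1.32, 1.27, 1.74, 1.49 and 2.44 CPM in B10.D2, a log2 difference of 0.80 ± 0.20 (adjusted p = 0.00519, edgeR). Rgs7bp (0.25 ± 0.07, adjusted p = 0.0138) and the RZ family member Rgs17 (0.19 ± 0.06, adjusted p = 0.0258) were higher in B10.D2 as well. The calls of Gna13, Gng10, Gng7, Gng4 and Gnb3 held under all 25 alternatives. Rgs7bp was lost without B10.D2 sham 77 (adjusted p = 0.0508), Rgs17 was lost without B10.D2 sham 60, 67 or 77 or BALB/c sham 50 or 55 (adjusted p up to 0.0814), and Gnb4, named after its values were seen (0.16 ± 0.06, adjusted p = 0.0453), was lost under 16 (adjusted p up to 0.151), among them leaving out B10.D2 sham 67, 77 or 88, B10.D2 SNI 78 or 90, any BALB/c SNI library or any BALB/c sham library but 57.

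Other cell type markers differed between the sham groups too. The 4 mural cell markers were all lower in B10.D2, with sums of 101 to 141 CPM in BALB/c and 74.8 to 92.1 in B10.D2. The 3 of 3 skeletal muscle markers were lower too, but their sums overlapped, at 7.43 to 1146 CPM in BALB/c and 5.72 to 16.5 in B10.D2. Markers higher in B10.D2 were 2 of 6 for macrophages and 2 of 3 tested for T cells, and 2 of 4 endothelial markers were lower. Also lower in B10.D2 were 1 of 3 satellite glia markers, Kcnj10 (-1.22 ± 0.12, edgeR adjusted p = 6.83e-08), and 1 of 2 adipocyte markers, Plin1 (-1.43 ± 0.44, adjusted p = 0.0243), and 1 of 6 neuron markers, Uchl1, was higher (0.15 ± 0.04, adjusted p = 0.0144). The part of these in the strain differences was not tested.

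**Figure D4:**
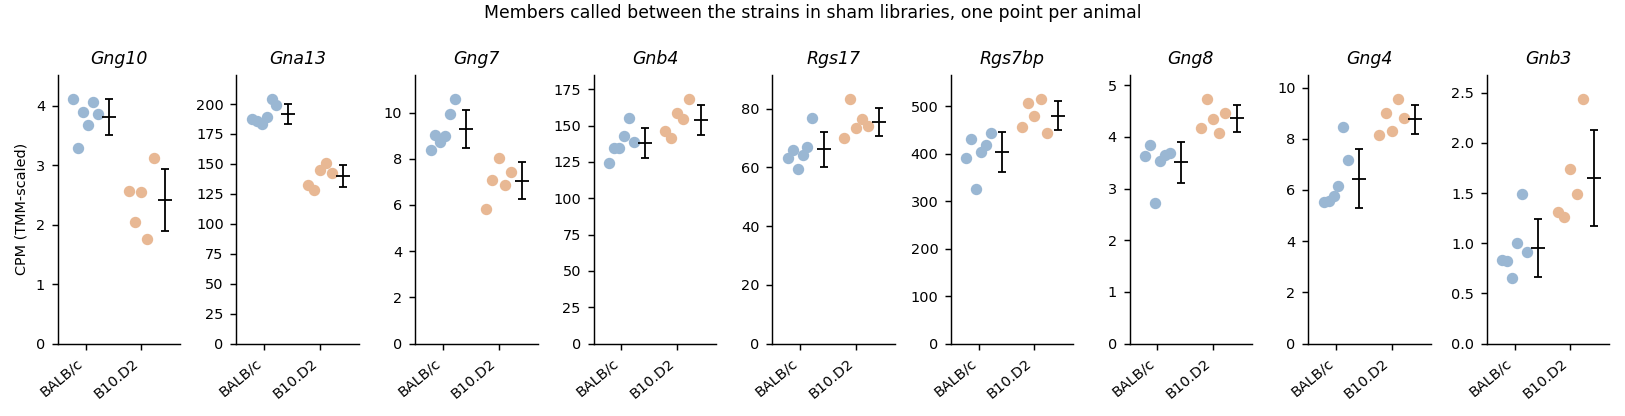
CPM of the 9 members called between the strains in sham libraries, with 1 point per animal, the mean ± SD beside each group and genes ordered by log2 difference. Gng10, Gna13 and Gng7 are lower in B10.D2 and the other 6 are higher, and only for Gng10, Gna13, Gng7 and Gng8 do the points of the strains not overlap.

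The rat comparison asked the same question after SNT. Of 53 rat members, 23 were listed at 0 in all 8 libraries (43.4%, beside 52.2% of annotated rat features), 5 more had too few counts to be tested (Gnat1, Gnat2, Gnat3, Gng11 and Rgs9bp) and 25 were tested. Those listed at 0 included 9 of 10 R4 RGS genes, among them Rgs4 and Rgs16, as well as Rgs7, Rgs9, Rgs12, Rgs14, Gnao1, Gnaz, Gnal, Gna12, Gna13, Gnb2, Gnb1l, Gng4, Gng13 and Gng14. Nothing can be said of their injury change, and Gng2, Rgs11 and Rgs7bp were not found by symbol in the rat table. The 9 R4 genes at 0 all lie on chromosome 1 in mouse, whereas Rgs3, the R4 gene with counts, lies on chromosome 4. Rat positions were not available, and these zeros are not read as a trait of the R4 class. In 25 tested members 12 were called, 6 higher and 6 lower, beside 27.4% of 13690 features (12.3% higher and 15.1% lower). The median absolute log2 fold change was 0.37, beside 0.34 over all features.

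Rgs10, a small R12 family protein that acts on Gi alpha subunits, fell the most. The sham libraries 1 to 4 were at 169, 162, 154 and 103 CPM, and the SNT libraries 1 to 4 at 86.8, 38.1, 39.2 and 38.1 CPM. All SNT libraries were below all sham libraries, and the values nearest each other were those of sham 4 and SNT 1. As a log2 fold change this was -1.54 ± 0.29 (adjusted p = 0.0114, edgeR), and without both of those libraries it was -2.05 (adjusted p = 4.27e-06). In mouse the corresponding values were -0.16 ± 0.06 in BALB/c (adjusted p = 0.114) and -0.08 ± 0.06 in B10.D2 (adjusted p = 0.552).

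Rgs6 fell in rat as in both mouse strains. Its sham libraries were at 37.6, 53.4, 37.9 and 26.0 CPM and its SNT libraries at 18.5, 12.6, 9.95 and 12.9 CPM, with no overlap. The log2 fold change was -1.52 ± 0.24 (adjusted p = 0.0106, edgeR), or -1.85 without sham 4 and SNT 1 (adjusted p = 7.52e-05). Its partner Gnb5 fell as well, from 80.5, 101, 97.5 and 77.8 CPM to 67.4, 40.2, 40.7 and 55.4 CPM, again without overlap. The log2 fold change of Gnb5 was -0.81 ± 0.18 (adjusted p = 0.0139), or -1.02 without those libraries (adjusted p = 6.23e-04).

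Among alpha subunits of the Gq/11 family, Gna14 fell and Gna11 rose. Gna14 was at 129, 191, 167 and 118 CPM in sham and 99.5, 51.03, 36.5 and 63.1 CPM in SNT, a log2 fold change of -1.27 ± 0.28 (adjusted p = 0.0141, edgeR) and of -1.68 without sham 4 and SNT 1 (adjusted p = 2.55e-04). Gna11 was at 29.4, 42.3, 33.3 and 37.8 CPM in sham and 48.6, 53.4, 48.1 and 51 CPM in SNT, a log2 fold change of 0.49 ± 0.12 (adjusted p = 0.0188) and of 0.55 without them (adjusted p = 0.0113). Neither gene overlapped between the groups. In mouse, Gna14 had -0.04 ± 0.06 and -0.01 ± 0.06 and Gna11 -0.03 ± 0.05 and 0.01 ± 0.05 in BALB/c and B10.D2. The other members of the family, Gna15 and Gnaq, were not called in rat with every library. Without sham 4 and SNT 1 they passed, at 1.48 (adjusted p = 7.16e-04, edgeR) and -0.42 (adjusted p = 0.0278).

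The Gi/o member Gnai3 rose, at 198, 180, 192 and 223 CPM in sham and 240, 261, 260 and 233 CPM in SNT, and the groups did not overlap. On the log2 scale the change was 0.33 ± 0.10 (adjusted p = 0.0398, edgeR), or 0.42 without sham 4 and SNT 1 (adjusted p = 0.0135). Gnai2 (0.37 ± 0.12, adjusted p = 0.0520) and Gnai1 (-0.30 ± 0.10, adjusted p = 0.0555) missed the threshold, and without those libraries they passed it, at 0.42 (adjusted p = 0.0421) and -0.39 (adjusted p = 0.0164). Gnas was at 15.0 to 36.2 CPM in the rat libraries and was not called (-0.27 ± 0.23, or -0.41 ± 0.24 without them). In BALB/c sham it was at 614 to 761 CPM. Why the rat level was so much lower was not tested, so neither that level nor the missing call is read further.

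Of 6 tested gamma subunits, 3 rose and the others were not called. Gng12 was at 8.45, 8.85, 6.20 and 8.47 CPM in sham and 11.8, 15.5, 14.7 and 12.3 CPM in SNT (0.76 ± 0.16, edgeR adjusted p = 0.0132). Gng5 was at 19.6, 12.6, 14.7 and 18.1 CPM and 23.8, 24.3, 24.5 and 22.2 CPM (0.55 ± 0.15, adjusted p = 0.0251). Both were without overlap between the groups, and without sham 4 and SNT 1 the log2 fold changes were 0.87 (adjusted p = 0.00434) for Gng12 and 0.62 (adjusted p = 0.0164) for Gng5.

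Gng8 rose in rat, the opposite of its direction in mouse. The sham libraries were at 8.54, 7.38, 6.48 and 6.45 CPM and the SNT libraries at 8.92, 10.7, 10.2 and 9.90 CPM, with no overlap, and the log2 fold change was 0.46 ± 0.15 (adjusted p = 0.0428, edgeR). Without sham 4 and SNT 1 it was 0.48 (adjusted p = 0.0422), and the call was lost under 8 of 14 alternatives (adjusted p up to 0.122). The species also differed in injury, ganglion level and library type, and the difference between them was not tested.

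Rgs3 of the R4 family, Rgs17 of the RZ family and Rgs22 were called with groups that overlapped. Rgs3 was at 219, 358, 258 and 188 CPM in sham and 207, 123, 93.3 and 133 CPM in SNT (-0.88 ± 0.26, edgeR adjusted p = 0.0327). Rgs17 was at 33.9, 31.9, 27.9 and 22.1 CPM and 23.0, 15.1, 16.1 and 19.9 CPM (-0.65 ± 0.18, adjusted p = 0.0255). Rgs22 was at 2.07, 1.95, 2.42 and 3.71 CPM and 3.29, 6.54, 5.78 and 4.13 CPM (0.96 ± 0.28, adjusted p = 0.0340). The overlap came from sham 4 and SNT 1 in all 3 genes, and without these libraries the log2 fold changes were -1.24, -0.86 and 1.37.

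With sham 4 and SNT 1 both left out, 16 of 26 tested members were called, 8 in each direction, beside 43.9% of 13892 features (21.7% higher and 22.3% lower), and these included all 12 called with every library. The share over all features was 27.4% with every library, so the added calls go with the choice of libraries and are not further support. Leaving out 1 library at a time gave between 5 (without SNT 2 or sham 3) and 16 calls (without sham 4). The calls of Rgs10, Rgs6, Gna14, Gnb5 and Gng12 held under all 14 alternatives. The remaining 7 members lost the call under 2 to 8 alternatives: Gna11 without SNT 2 or sham 3, Gng5 without SNT 2, SNT 3 or sham 3, Rgs17, Rgs22, Rgs3 and Gnai3 without SNT 2, 3 or 4 or sham 1, 2 or 3, and Gng8 without SNT 2, 3 or 4 or sham 2, 3 or 4 (adjusted p up to 0.122 over these 7 members).

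Of 3 tested macrophage markers in rat, Cx3cr1 was called higher (1.35 ± 0.24, edgeR adjusted p = 0.0109), and Itgam (1.09 ± 0.40, adjusted p = 0.0686) and C1qa (1.15 ± 0.48, adjusted p = 0.0982) did not pass. Without sham 4 and SNT 1 all 3 were called, at 1.71, 1.74 and 2.09. The sum of the macrophage markers was 98.0, 58.1, 66.03 and 251 CPM in sham 1 to 4 and 227, 271, 339 and 224 CPM in SNT 1 to 4, where Aif1, Csf1r and Cd68 were listed at 0. Of the T cell markers, Cd3e was called higher, at 0.41 ± 0.27 CPM in sham and 1.67 ± 0.28 CPM in SNT (SD, edgeR adjusted p = 0.0117), and Cd3g was not (0.97, adjusted p = 0.192). The sum of the T cell markers was 0.71 to 2.54 CPM in sham and 2.59 to 4.95 CPM in SNT. Without sham 4 and SNT 1, Cd3e, Cd3g and Cd3d were called higher, at 2.63, 1.87 and 2.28. Only 2 of the 6 neuron markers were tested in rat, as Rbfox3, Tubb3 and Uchl1 were listed at 0 and Snap25 was not found by symbol. Of these 2, Elavl4 fell by 0.71 ± 0.19 on the log2 scale (adjusted p = 0.0249, edgeR), or by 0.98 without sham 4 and SNT 1. Prph, at 0.04 ± 0.20, was not called. The part of these markers in the members' changes was not tested.

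**Figure D5:**
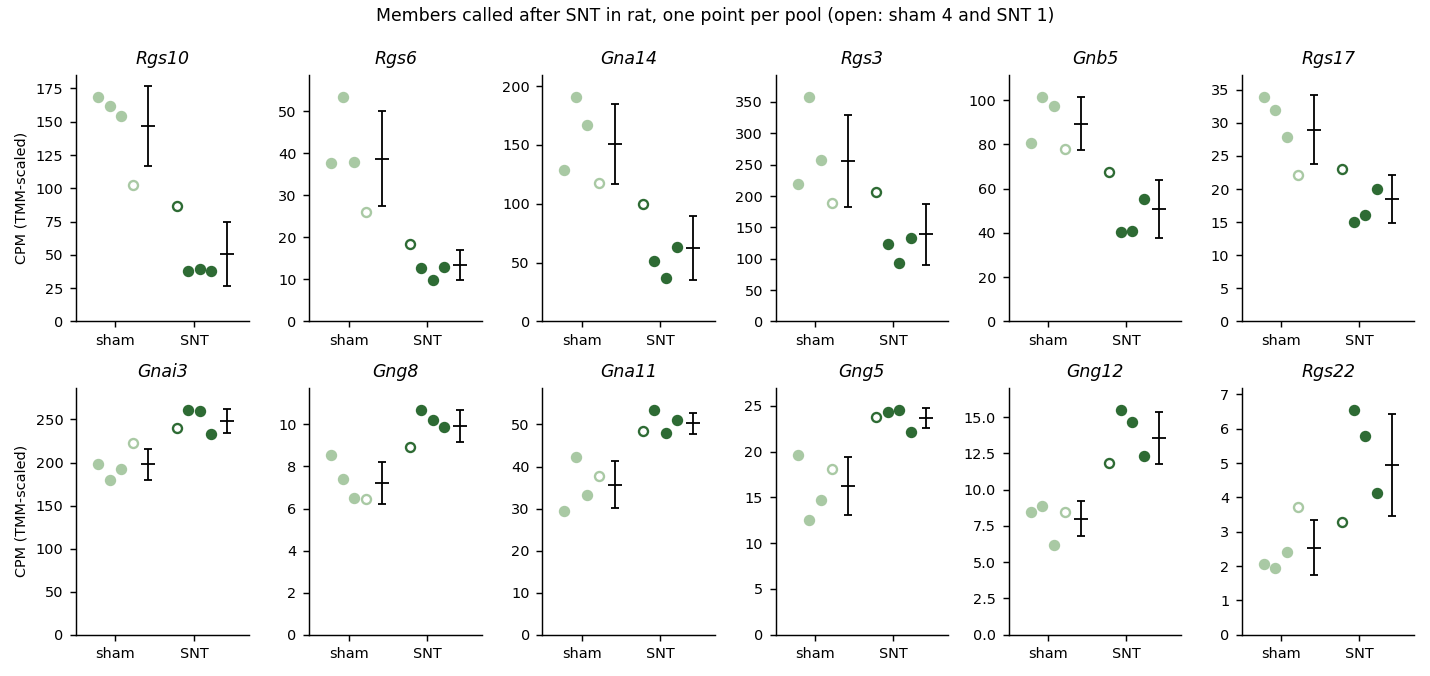
CPM of the 12 members called after SNT in rat, with 1 point per pool of 3 animals, open points for sham 4 and SNT 1 and the mean ± SD beside each group. Rgs10 falls from 103 to 169 CPM in sham to 38.1 to 86.8 CPM in SNT. The open points lie nearest the other group for Rgs10, Rgs6, Gna14 and Gnb5, and overlap for Rgs3, Rgs17 and Rgs22.

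The proteins next in the pathway were taken from a list of 43 genes. In mouse 41 were tested, of which 0 rose and 6 fell in BALB/c and 0 rose and 2 fell in B10.D2. Of all features, 4.82% rose and 4.87% fell in BALB/c, and 2.1% rose and 2.48% fell in B10.D2, where 2 of 41 genes is near that share. In BALB/c the fallen genes were Plcb1, a phospholipase C beta (-0.23 ± 0.04), the G protein-gated potassium channel subunits Kcnj3 (-0.52 ± 0.08) and Kcnj9 (-0.73 ± 0.13), and the protein kinase A subunits Prkaca (-0.20 ± 0.05), Prkacb (-0.16 ± 0.04) and Prkar2b (-0.18 ± 0.06). In B10.D2 they were Plcb1 (-0.17 ± 0.04, edgeR adjusted p = 0.0258) and Prkar2b (-0.23 ± 0.05, adjusted p = 0.0179).

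The channel genes summed to 32.8 to 37.3 CPM in BALB/c sham and 23.2 to 25.9 CPM in SNI, and to 33.2 to 42.3 and 29.4 to 38.3 CPM in B10.D2. The interaction called none of the 41 genes. No adenylyl cyclase, receptor kinase, arrestin or exchange factor with an RGS domain was called after SNI. Between the strains in sham, 5 of the 41 were higher in B10.D2 and 2 lower, beside 21.6% of all features called in either direction, among them the calcium-stimulated cyclase Adcy8 at -0.88 ± 0.08 (adjusted p = 3.92e-08, edgeR).

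In rat 19 of the 43 were listed at 0 and 24 were tested, of which 5 rose and 2 fell. This was near the share of all features, 27.4% in either direction (12.3% higher and 15.1% lower). Without sham 4 and SNT 1, 6 rose and 4 fell, beside 43.9% of all features. The genes that fell were both channel subunits tested, Kcnj3 (-1.11 ± 0.34, edgeR adjusted p = 0.0376) and Kcnj5 (-1.12 ± 0.24, adjusted p = 0.0138). Those that rose were the cyclase Adcy6 (0.79 ± 0.18), the exchange factors with an RGS domain Arhgef1 (0.62 ± 0.14) and Arhgef12 (0.45 ± 0.11), the arrestin Arrb1 (0.53 ± 0.15) and the G protein modulator Gpsm1 (0.46 ± 0.12). Without sham 4 and SNT 1 these 7 genes kept their calls, at -1.60 for Kcnj3, -1.37 for Kcnj5, 1.06 for Adcy6, 0.83 for Arhgef1, 0.56 for Arhgef12, 0.67 for Arrb1 and 0.54 for Gpsm1. Kcnj3 was the gene of this list that fell in both BALB/c and rat.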

How the data were processed

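Strand-specific paired-end RNA sequencing used ribosomal depletion in mouse and poly-A selection in rat. The authors aligned reads with STAR to mm10 or rn6 and deposited raw counts per gene from HTSeq. They also deposited DESeq2 means, fold changes and p-values of their own comparisons, which were not used beyond the symbols paired with gene identifiers. Here counts were fitted with edgeR 4.0.16 (R 4.3.3) by the quasi-likelihood F test after TMM scaling and filterByExpr. The mouse model held the 4 strain by surgery groups and sex over 20 libraries, and the rat model held surgery over 8. Benjamini-Hochberg adjustment ran over all features, and SE was derived from the F statistic. No columns outside the series were present in the count tables. Members, classes, marker lists and the pathway list were chosen with earlier results of these data known.

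Named members were those called in the interaction, in both strains or in a strain and rat, the 5 called members with the largest change in each direction of each comparison, and the most abundant of each class. Exon lengths came from GENCODE M21, and the most abundant member of a class was taken per kb of exon. Alternatives were DESeq2 1.42.0, RLE size factors, no filter, a minimum of 10 counts in every library, no sex term, each strain alone and each library left out. A further alternative in rat took the number in the sample titles, which the labels do not explain, as a block. Leaving out rat sham 4 and SNT 1 together was chosen after seeing the data. Each number was shared by 1 sham and 1 SNT library. Libraries that shared it correlated at 0.05, -0.29, -0.11 and -0.09 in their deviations from the group means. Because sham 4 and SNT 1 stood apart from their groups, these values cannot show whether the number pairs the libraries. The main rat model left the number out. On simulated counts of the BALB/c comparison (24685 features, 200 changed) 56.5% of 1.5-fold and 81.5% of 2-fold changes were called, and for rat (13690 features, 200 changed) 1.0% and 57.5%. In the data 9.69% of features were called in BALB/c and 27.4% in rat, which eases the adjusted threshold. The simulated shares are therefore not the sensitivity of either comparison.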

Additional observations from a re-analysis of the deposited data

Results flagged for a closer look

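In 164 sets of 1 gene in 1 group of 4 to 6 libraries, 11 had a library far from the others, and chance alone marks about 1 in 20 such sets. Among alpha subunits, Gna11 was at 75.2 CPM in B10.D2 sham 60 (others 67.7 to 68.7) and at 76.7 CPM in BALB/c sham 57 (others 66.3 to 69.6). Gnb1 was at 457 CPM in BALB/c SNI 64, against 380 to 389 CPM in the other BALB/c SNI libraries. The same library held Rgs22 at 1.05 CPM, against 0.54 to 0.62 CPM.

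Of the gamma subunits, Gng10 was at 3.96 CPM in B10.D2 SNI 69 (others 2.37 to 2.68) and Gng12 at 21.3 CPM in B10.D2 SNI 89 (others 25.6 to 26.5). Gng8 was at 2.73 CPM in BALB/c sham 55 (others 3.54 to 3.83), the library through which the BALB/c sham and SNI values of Gng8 overlapped. In rat, Gng10 was at 73.2 CPM in SNT 4 (others 83.5 to 84.7) and Gng12 at 6.20 CPM in sham 3 (others 8.45 to 8.85). Rgs20 was at 7.02 CPM in rat sham 2 (others 4.50 to 4.72). Rgs10 was at 86.8 CPM in rat SNT 1, against 38.1 to 39.2 CPM in the other SNT libraries, and SNT 1 is 1 of the pair of rat libraries that stood apart over all genes.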

How the results depend on the processing

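No member called in a comparison changed direction in that comparison under its alternatives. With each library left out in turn, the number of members called ranged from 5 (without BALB/c SNI 65) to 11 in BALB/c, from 4 to 6 in B10.D2, from 5 (without B10.D2 sham 77) to 10 between the strains in sham and from 5 (without rat SNT 2 or sham 3) to 16 (without rat sham 4) in rat, and stayed at 0 for the interaction and for sex. BALB/c SNI 70 and sham 56 each left 6 calls when left out, and in rat SNT 3 left 6 and SNT 4 left 7. With the number in the rat sample titles as a replicate block, 7 members were called, 2 higher and 5 lower. Whether that number pairs the libraries is not known. With rat sham 4 and SNT 1 both left out, 16 were called. In simulated counts of the rat comparison, with 200 of 13690 features changed, 1.0% of 1.5-fold changes were called. In the data 27.4% of features were called, which eases the adjusted threshold. The simulated share is therefore not the sensitivity of this comparison, although rat changes of that size can still be missed.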

Other observations

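The mouse table also holds LncRNAs that the authors assembled from reads outside annotated genes. Within 10000 bases of 17 members lay 20 of them, of which 17 overlapped the member and 17 were on its strand. After SNI 0 of 19 tested were called with edgeR in BALB/c (smallest adjusted p = 0.177) and 0 in B10.D2 (smallest adjusted p = 0.0890). Between the strains in sham, 3 of 19 were called, beside 21.6% of all features. LncRNA208 and LncRNA209, which lie within the span of Rgs7 on its strand, were higher in B10.D2 by 0.49 and 0.28 on the log2 scale (edgeR adjusted p = 4.03e-06 and 0.00106), and LncRNA1074 within Gnai1 was lower (-0.27, adjusted p = 0.0484). Reads of an unannotated stretch of the member's own transcript and of a separate LncRNA on the same strand cannot be told apart in these counts.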
